A study of Homo sapiens with 9 samples.

Results

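A set of 967 regions of accessible chromatin had a peak in the control, IGF2BP2 knockout and IGF2BP3 knockout lists and none in the IGF2BP1 knockout list. The data are ATAC-seq peak lists from HEK293T cells, an established line of human embryonic kidney origin, and ATAC-seq uses the Tn5 transposase to cut and tag DNA that is not packed into closed chromatin. The members were chosen by the presence or absence of peaks alone: the 4 deposited lists were pooled, peaks sharing at least 1 bp were merged into 71597 regions, and the pattern of lists at each region was read. Of the 30653 regions held by the 3 other lists, the IGF2BP1 knockout list lacked 3.15% (Wilson 95% interval 2.96 to 3.36), which defines the members and is not a result about them.

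All cells were untreated. The control was wild type with a CRISPR/Cas9 non-targeting guide, made in parallel, with 2 libraries from batches 2 and 3. The IGF2BP1 gene knockout had 3 libraries from batches 1, 2 and 3, and the IGF2BP2 and IGF2BP3 gene knockouts had 2 libraries each from batches 2 and 3. Each knockout was 1 clone, grown from a sorted GFP-positive cell after transient transfection of non-integrating plasmids with guides against that gene, and an effect of the clone and one of the genotype cannot be told apart. Batch 1 entered the IGF2BP1 knockout alone. There is 1 list per group and no value per library, so no spread between replicates exists and no test across replicates could be made. The lists give the start and end of each peak and no height, score or read depth. Intervals below are 95% Wilson intervals, which cover counting error over regions and nothing else.

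The IGF2BP proteins bind messenger RNA through RNA recognition motifs and KH domains, stabilise many of their targets and include readers of N6-methyladenosine. IGF2BP1 and IGF2BP3 are abundant in embryonic tissue, low in most adult tissue and often present again in tumours. The IGF2BP proteins are cytoplasmic for the most part. A peak list therefore does not measure what they bind, and it does not measure the knockout itself. Every list, that of its own knockout included, had a peak at an end of IGF2BP1. The widest measured 2434 bp in control cells and 2392 bp where IGF2BP1 was knocked out, beside 907 bp (IGF2BP2 knockout) and 1850 bp (IGF2BP3 knockout). Of 20 kidney and neural developmental genes taken as marks of this line, 14 had a peak at a gene end or start site in each list. Of 15 marker genes of blood, liver, muscle, heart, skin and pancreas, 5 had one in the control and in the IGF2BP2 and IGF2BP3 knockouts, and 6 in the IGF2BP1 knockout.

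The 6 promoters below are shown because they lay wholly inside a member, and their members had the largest smallest width among the 38 promoter windows that did. They are RefSeq sequences of build GRCh38.p14, each running from 250 bases before a start site to 50 bases from it, in the direction of transcription. PSENEN (chr19:35745401-35745700, plus strand) encodes a subunit of gamma-secretase, and U2AF1L4 (chr19:35745369-35745668, minus strand) a relative of the small subunit of the splicing factor U2AF. These windows overlap on opposite strands of 1 member. PITPNM3 (chr17:6556506-6556805, minus strand) belongs to a family of membrane-associated phosphatidylinositol transfer proteins. MCCD1 (chr6:31528712-31529011, plus strand) encodes a mitochondrial coiled-coil protein within the major histocompatibility complex. FGF11 (chr17:7440518-7440817, plus strand) is an intracellular member of the fibroblast growth factor family. BMI1 (chr10:22320849-22321148, plus strand) is a core subunit of Polycomb repressive complex 1. Capitals mark matches, on either strand, to any of 9 short motifs. GGGCGG is bound by SP and KLF zinc finger factors, and CCAAT by the trimeric factor NF-Y. The letters CCGGAA form the core of sites for ETS factors, and GCGCATGC that of sites for NRF1. The cyclic AMP response element was searched as TGACGTCA and the site of AP-1, the dimer of Fos and Jun proteins, as TGANTCA. The E-box that Myc proteins and their relatives bind was searched as CACGTG, the YY1 motif as AAGATGGC and the TATA box, near which transcription starts, as TATAAA.
PSENEN: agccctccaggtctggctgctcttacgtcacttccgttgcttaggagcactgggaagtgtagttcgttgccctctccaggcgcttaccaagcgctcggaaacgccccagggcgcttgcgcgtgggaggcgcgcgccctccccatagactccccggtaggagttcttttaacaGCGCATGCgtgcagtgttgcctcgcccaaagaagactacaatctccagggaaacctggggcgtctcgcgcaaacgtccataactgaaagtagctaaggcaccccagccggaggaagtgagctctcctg
U2AF1L4: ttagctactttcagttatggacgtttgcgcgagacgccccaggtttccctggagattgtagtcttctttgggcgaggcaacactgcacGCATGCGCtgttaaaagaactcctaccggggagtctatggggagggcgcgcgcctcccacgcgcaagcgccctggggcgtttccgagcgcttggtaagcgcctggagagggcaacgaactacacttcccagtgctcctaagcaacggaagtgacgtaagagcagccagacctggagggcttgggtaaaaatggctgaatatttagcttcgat
PITPNM3: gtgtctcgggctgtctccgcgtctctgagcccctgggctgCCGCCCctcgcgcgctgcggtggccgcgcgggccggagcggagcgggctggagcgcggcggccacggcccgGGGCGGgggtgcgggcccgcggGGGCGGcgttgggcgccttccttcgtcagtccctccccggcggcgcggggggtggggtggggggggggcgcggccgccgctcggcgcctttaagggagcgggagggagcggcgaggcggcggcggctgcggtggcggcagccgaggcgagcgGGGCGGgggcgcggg
MCCD1: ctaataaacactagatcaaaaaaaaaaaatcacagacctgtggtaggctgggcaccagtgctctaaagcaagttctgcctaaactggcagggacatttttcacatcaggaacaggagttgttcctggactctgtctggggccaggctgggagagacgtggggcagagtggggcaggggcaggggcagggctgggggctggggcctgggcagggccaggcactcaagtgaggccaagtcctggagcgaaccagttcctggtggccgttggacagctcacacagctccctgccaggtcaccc
FGF11: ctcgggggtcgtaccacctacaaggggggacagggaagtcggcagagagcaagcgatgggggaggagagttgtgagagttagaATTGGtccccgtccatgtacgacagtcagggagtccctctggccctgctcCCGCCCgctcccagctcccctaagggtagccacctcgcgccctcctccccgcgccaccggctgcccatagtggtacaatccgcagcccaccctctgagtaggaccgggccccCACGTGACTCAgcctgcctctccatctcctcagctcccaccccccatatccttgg
BMI1: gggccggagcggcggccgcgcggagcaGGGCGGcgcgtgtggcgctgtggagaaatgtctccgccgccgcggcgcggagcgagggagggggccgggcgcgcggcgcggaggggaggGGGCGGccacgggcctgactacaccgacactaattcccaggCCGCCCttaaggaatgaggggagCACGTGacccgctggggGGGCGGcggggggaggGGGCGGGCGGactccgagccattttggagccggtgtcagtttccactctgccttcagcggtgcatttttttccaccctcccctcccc

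The windows at PSENEN and U2AF1L4 held the same GCGCATGC match, read from opposite strands, and no other. PITPNM3 had 4 matches to GGGCGG in a window of 84.0% GC. BMI1 had 6 matches to GGGCGG, of which 2 overlap, and 1 to the E-box, at 73.3% GC. The FGF11 window held 1 match each to the SP and KLF, NF-Y, AP-1 and E-box motifs, and the last 2 overlap. MCCD1 had no match to any motif and a ratio of observed to expected CpG of 0.12, against 0.817 at PSENEN, 0.932 at U2AF1L4, 0.512 at FGF11, 0.917 at BMI1 and 1.02 at PITPNM3.

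At the member over PSENEN and U2AF1L4 (chr19:35744731-35745828) the control peak was 897 bp wide, the IGF2BP2 knockout peak 1098 bp and the IGF2BP3 knockout peak 913 bp. The nearest peak of the IGF2BP1 knockout lay 2.42 kb away and was 676 bp wide. At BMI1 (chr10:22320668-22321735) the widths were 741, 802 and 1068 bp in the same order, and the nearest IGF2BP1 knockout peak, of 1337 bp, lay 3.58 kb away. That member also lies within the read-through gene COMMD3-BMI1, so it cannot be assigned to 1 transcript. The PITPNM3 member (chr17:6555960-6557205) had peaks of 955, 819 and 1153 bp, and no IGF2BP1 knockout peak came closer than 82.4 kb. At FGF11 (chr17:7440258-7441143) the peaks were 886, 790 and 742 bp wide. FGF11 has further annotated start sites, and an IGF2BP1 knockout peak lay within 1 kb of at least 1 of them. At MCCD1 (chr6:31528147-31530108) the control peak of 1653 bp and the IGF2BP2 knockout peak of 1676 bp were wide, and the IGF2BP3 knockout peak was narrow at 765 bp.

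Members were ranked by the smallest of their 3 widths among those at least 1 kb from any IGF2BP1 knockout peak, and 8 of the first 10 are named here. These 8 lay 6.40 to 199 kb from the nearest start site listed in the RefSeq table. One of them overlaps a tRNA gene, for which that table lists no start site. The gene table gives no exons, so exons, introns and UTRs are not told apart here.

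First of the 8 by the smallest of its 3 widths was a member within APBA1 (chr9:69431197-69432766), which encodes a synaptic adaptor that binds the amyloid precursor protein. Its control peak measured 1220 bp, its IGF2BP2 knockout peak 1470 bp and its IGF2BP3 knockout peak 1439 bp, and the nearest IGF2BP1 knockout peak was 7.39 kb away. A member within GLI2 (chr2:120934694-120936132), a transcription factor of Hedgehog signalling, had peaks of 1107, 1158 and 1209 bp. Another within ART1 (chr11:3653761-3654869), a mono-ADP-ribosyltransferase, had peaks of 1014, 1007 and 1070 bp. At these last 2 genes the 3 lists thus drew peaks of nearly the same width. A member over the lysine tRNA gene TRK-TTT3-3 (chr6:28950901-28952280), in the large tRNA gene cluster of that chromosome, had peaks of 1121, 1323 and 1204 bp. tRNA genes exist in near-identical copies, so reads there may be shared between copies.

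Both members on X in this group lay in the pseudoautosomal region, whose sequence X and Y share. They were within CRLF2 (chrX:1205081-1206380), a subunit of the receptor for thymic stromal lymphopoietin, with peaks of 1296, 1051 and 1218 bp, and within PPP2R3B (chrX:376338-377717), a regulatory subunit of protein phosphatase 2A, with peaks of 1289, 990 and 1191 bp. The remaining pair lay outside genes, at chr15:20340744-20342496 and chr16:33337566-33339493, both close to a centromere and rich in duplicated sequence. The first had peaks of 1132, 1438 and 1692 bp and the second of 1928, 1007 and 1740 bp. No IGF2BP1 knockout peak came within 163.5 kb of the first or 32.3 kb of the second.

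**Figure D1:**
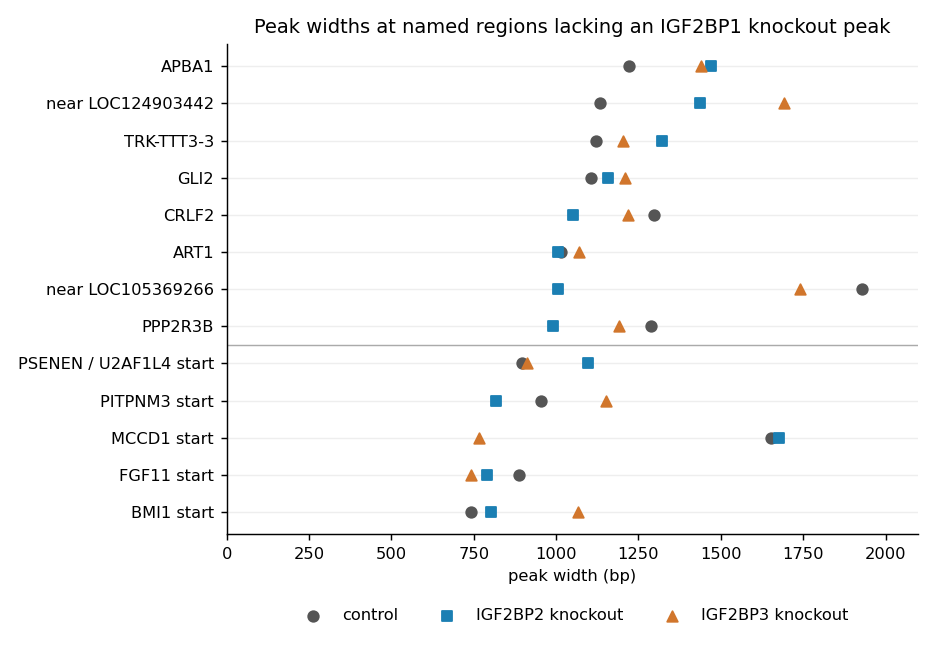
Width in bp of the control, IGF2BP2 knockout and IGF2BP3 knockout peaks (1 point per list). Above the line are the 8 named members ranked by the smallest of their 3 widths, and below it the 5 members that hold the printed promoters. The 3 lists differed least at ART1, from 1007 to 1070 bp, and widely at MCCD1, from 765 to 1676 bp.

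Members were narrow in every list that held them. Their median width was 511 bp in the control (quartiles 402 and 648.5 bp, range 225 to 1928 bp), against 771 bp over the whole control list. In the IGF2BP2 knockout it was 528 bp against 651 bp, and in the IGF2BP3 knockout 518 bp against 713 bp. The median member thus stood at percentile 18.6, 32.7 and 25.5 of the widths in these lists. The widest of the 3 peaks came from the control at 325 members, from the IGF2BP2 knockout at 356 and from the IGF2BP3 knockout at 286, so no single list supplied most of the wide peaks. At the median member, 60.6% of the span of the 3 peaks was common to all of them, against 69.6% over the 4 peaks of regions in every list. Regions absent from 1 other list were much the same, with 59.8% (IGF2BP2 knockout), 62.5% (IGF2BP3 knockout) and 60.3% (control). Their peaks were narrow too, with medians of 593.5 bp in the control for those absent from the IGF2BP2 knockout and 553 bp for those absent from the IGF2BP3 knockout. A single peak in each list made up 99.3% of members.

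The share of regions without an IGF2BP1 knockout peak was lower the wider the peaks were elsewhere. With the geometric mean of the 3 widths under 400 bp, 166 of 653 regions were members (25.4%). The share was 8.28% of 5999 from 400 to 600 bp, 3.05% of 7471 from 600 to 800 bp and 0.951% of 5782 from 800 to 1000 bp. Above 1500 bp it was 1 of 2393. Of all members, 663 (68.6%) were under 600 bp. Read depth is unknown for every list, and its part in these absences was not tested. The IGF2BP1 knockout list was the second longest, with 50917 peaks against 39194 in the control, 60262 in the IGF2BP2 knockout and 44041 in the IGF2BP3 knockout.

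The same kind of absence was counted for the other lists. Of the regions held by the 3 others, the IGF2BP2 knockout list lacked 642, or 2.12%, the IGF2BP3 knockout list 3690, or 11.1%, and the control list 4925, or 14.2%. The 4 percentages share the 29686 regions found in every list. They also changed when each list was limited to its 39194 widest peaks, which alters the length of the lists and the widths kept together. The IGF2BP1 knockout list then lacked 5.90%, the IGF2BP2 knockout list 8.11%, the IGF2BP3 knockout list 7.54% and the control list 8.72%. A member lay a median of 12.2 kb from the nearest IGF2BP1 knockout peak (quartiles 4.76 and 29.7 kb, farthest 1.74 Mb), and 63 of 964 lay within 1 kb of one. The other 3 members were on sequences where the IGF2BP1 knockout list holds no peak. For regions absent from the IGF2BP2 knockout, the IGF2BP3 knockout or the control alone, the median distance to a peak of the lacking list was 11.0, 18.8 and 25.3 kb. Across the 4 lists this distance was shorter the longer the lacking list was. At the edge of the rule, the members nearest to an IGF2BP1 knockout peak were 26, 195 and 223 bp from it, and the regions in every list with the least overlap shared 119, 244 and 261 bp.

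Chromosome 17, which carries IGF2BP1, held 124 of the members, or 12.8% (10.9 to 15.1), against 4.83% of regions in all 4 lists. Of the 1557 regions on it held by the 3 other lists, 7.96% (6.72 to 9.41) lacked an IGF2BP1 knockout peak, against 2.90% of the 29096 regions elsewhere. This was the highest share of the 22 autosomes and X. Chromosome 10 followed with 75 of 1544 (4.86%, 3.89 to 6.05) and chromosome 15 with 46 of 1019 (4.51%, 3.40 to 5.97). The lowest were chromosome 7 with 21 of 1422 (1.48%, 0.968 to 2.25) and chromosome 2 with 34 of 1974 (1.72%, 1.24 to 2.40). The intervals of chromosomes 10 and 15 overlap each other, and neither reaches that of chromosome 17.

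**Figure D2:**
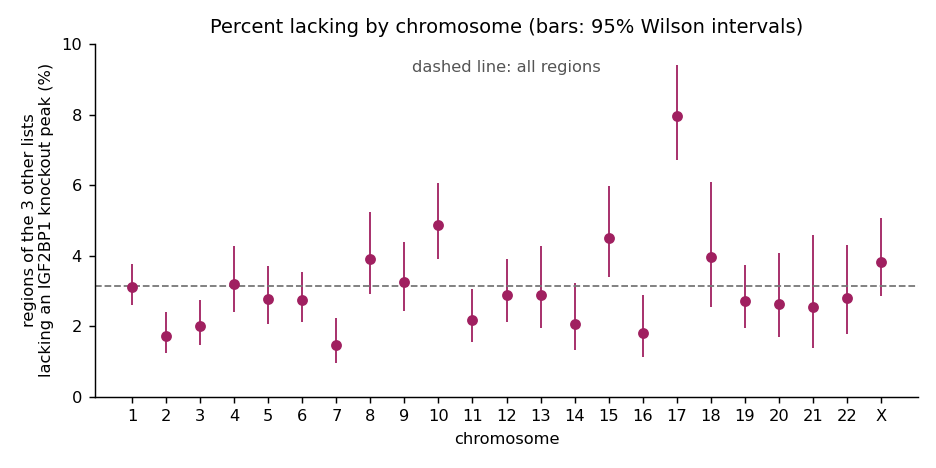
Percent of the regions held by the 3 other lists that lacked an IGF2BP1 knockout peak, for each chromosome (points, with 95% Wilson intervals as bars) and over all regions (dashed line, 3.15%). Chromosome 17 stands at 7.96% and the other chromosomes between 1.48 and 4.86%.

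On chromosome 17 the other lists gave a different picture. The IGF2BP2 knockout list lacked 22 of 1455 regions there (1.51%), the IGF2BP3 knockout list 56 of 1489 (3.76%, the lowest share among its 23 chromosomes) and the control list 129 of 1562 (8.26%). Each of these was below that list's share over all regions, whereas the share for the IGF2BP1 knockout was above its own. No test of this difference was made, since neighbouring regions are not independent and there is 1 clone per knockout. The number of copies of each chromosome in the clones was not measured here, and in the chromosome 17 values it cannot be told apart from the genotype.

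The share was higher on chromosome 17 than elsewhere in each width class up to 1000 bp. Under 400 bp, 16 of 38 regions on chromosome 17 were members (42.1%, 27.9 to 57.8), against 24.4% of 615 elsewhere (21.2 to 27.9), and these intervals just overlap. From 400 to 600 bp the share was 20.0% of 300 (15.9 to 24.9) against 7.67% of 5699. It was 10.4% of 327 (7.54 to 14.2) against 2.72% of 7144 from 600 to 800 bp, and 3.75% of 320 (2.16 to 6.44) against 0.787% of 5462 from 800 to 1000 bp. From 1000 to 1500 bp chromosome 17 had 2 members among 444 regions, and above 1500 bp 0 among 128, which allows a share of up to 2.91% by the same interval. In both classes the intervals overlapped those of the other chromosomes. The share was also higher both at and away from start sites. Within 1 kb of a start site it was 1.98% of 605 regions (1.14 to 3.43) on chromosome 17 and 0.561% of 10686 (0.436 to 0.722) on the other chromosomes. Away from start sites it was 11.8% of 952 (9.87 to 14.0) against 4.24% of 17140 (3.94 to 4.55).

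**Figure D3:**
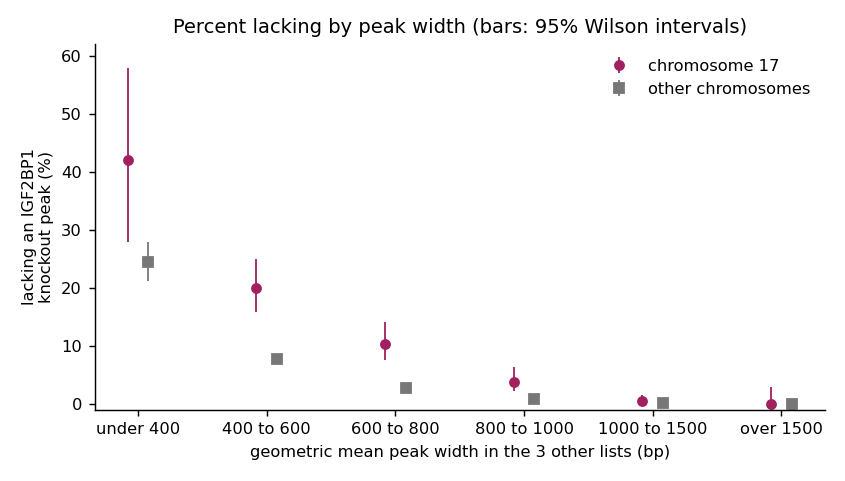
Percent of regions lacking an IGF2BP1 knockout peak by the geometric mean width of their peaks in the 3 other lists (bp), for chromosome 17 (circles) and the other chromosomes (squares), with 95% Wilson intervals. From 400 to 600 bp the values are 20.0% and 7.67%, and above 1000 bp both are under 1%.

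Along chromosome 17 the members were uneven. In 5 Mb windows, the share ranged from 3.61% (3 of 83, from 55 to 60 Mb) to 25% (10 of 40, from 20 to 25 Mb), and it was above 3.15% in each of the 17 windows. Over the first 25 Mb it was 56 of 439 (12.8%, 9.96 to 16.2), and beyond 25 Mb 68 of 1118 (6.08%, 4.83 to 7.64). That boundary was set after the values were seen. The same stretches were lacking in the IGF2BP2 knockout at 0.519 and 1.87%, in the IGF2BP3 knockout at 2.05 and 4.37%, and in the control at 6.13 and 9.01%, each with the lower value in the first 25 Mb. Near IGF2BP1 the share was 17 of 309 (5.50%, 3.46 to 8.63) in the 10 Mb at lower coordinates and 6 of 143 (4.20%, 1.94 to 8.85) in the 10 Mb at higher ones. The member nearest to IGF2BP1 lay 41.7 kb from the gene (chr17:48954100-48954866), with peaks of 585, 767 and 353 bp in the control, IGF2BP2 knockout and IGF2BP3 knockout. It was 1 of 4 members within 1 Mb of the gene. No member lay within 1 Mb of the other targets, the nearest being 8358 kb from IGF2BP2 and 3427 kb from IGF2BP3.

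Where IGF2BP1 knockout peaks were present, their width relative to the other lists was lowest on chromosome 17. At regions in all 4 lists, the log2 ratio of the IGF2BP1 knockout width to the geometric mean of the other 3 had a median of 0.16 over the genome (quartiles 0.04 and 0.34). Its median was 0.10 on chromosome 17, the lowest of 23 chromosomes, with 0.12 on chromosome 15, 0.13 on X and 0.14 on chromosome 10 next. It was 0.03 in the first 25 Mb of chromosome 17 and 0.12 beyond. These 4 chromosomes also hold 4 of the 6 highest shares of members. Chromosomes 18 and 8 hold the others, with medians of 0.17 and 0.15. A low ratio can come from the IGF2BP1 knockout peaks or from those of the other lists, and which was not tested. The part of peak width in the shares by chromosome was not tested beyond the width classes above.

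**Figure D4:**
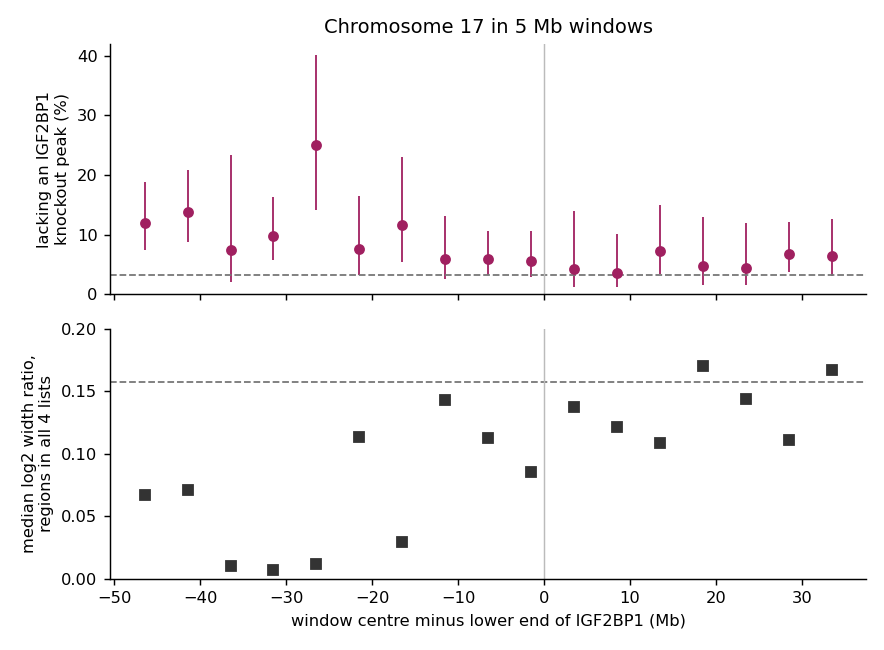
Chromosome 17 in 17 windows of 5 Mb, placed by the distance in Mb from their centre to the lower end of IGF2BP1. The upper panel gives the percent lacking an IGF2BP1 knockout peak with 95% Wilson intervals, and the lower panel the median log2 ratio of IGF2BP1 knockout peak width to the other 3 lists at regions in all 4. Dashed lines are the values over all regions, 3.15% and 0.16. The windows in the first 25 Mb have medians from 0.01 to 0.07 and shares from 7.41 to 25%.

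Members were seldom at promoters. Of the 910 on chromosomes with annotated start sites, 72 had one within 1 kb (7.91%, 6.33 to 9.85), against 39.4% of regions in all 4 lists. The share was 22.8% for regions absent from the IGF2BP2 knockout alone (19.7 to 26.4), 6.44% for the IGF2BP3 knockout (5.68 to 7.29) and 7.43% for the control (6.72 to 8.22). In the width classes that follow, chromosome 8 is left out of the regions away from start sites. Regions on other sequences with no listed start site are counted among them. Within 1 width class, from 400 to 600 bp, the share of members was 5.47% of 512 regions at start sites (3.81 to 7.79). It was 8.44% of 5273 away from them (7.72 to 9.22), and these intervals just overlap. From 600 to 800 bp the intervals also overlapped, at 2.16% of 1249 (1.49 to 3.13) and 3.21% of 5980 (2.79 to 3.69). From 800 to 1000 bp they did not, at 0.377% of 2385 (0.199 to 0.716) and 1.26% of 3173 (0.927 to 1.71). Nor did they from 1000 to 1500 bp, at 0.0749% of 5337 (0.0291 to 0.193) and 0.518% of 2705 (0.309 to 0.867). Under 400 bp (4 of 38 and 160 of 592) and above 1500 bp (0 of 1770 and 1 of 539) the intervals overlapped too. Within 1 kb of either end of a gene lay 172 members (17.8%, 15.5 to 20.3), against 48.3% of regions in all 4 lists. With every peak trimmed to 200 bp, 1486 regions were members and the share was 30.9%. It was not computed for regions in all 4 lists with trimmed peaks, so 48.3% is not a like comparison for it.

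The 72 members at start sites belonged to 55 protein-coding genes and 25 long non-coding RNAs. The names that follow were taken from this complete set after the values were seen. At 24 of the 55 genes the IGF2BP1 knockout had another peak within 1 kb of a listed start site. At NCOA1, a coactivator of nuclear receptors, the member lay 26 bp from an IGF2BP1 knockout peak of 2311 bp. At DDX6, an RNA helicase of mRNA decay and P-bodies, it was 0.431 kb from a peak of 1537 bp, and at UBTF, the RNA polymerase I transcription factor, 0.248 kb from a peak of 1864 bp. PDS5B, a regulator of cohesin, was similar, with 0.318 kb to a peak of 951 bp. At these 4 genes a listed start site lay inside the IGF2BP1 knockout peak.

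At the other 31 genes the IGF2BP1 knockout list had no peak within 1 kb of any start site in the table. Besides PSENEN, U2AF1L4, PITPNM3, MCCD1 and BMI1, they included genes of varied function. ZFP36 encodes tristetraprolin, which binds AU-rich elements and promotes mRNA decay. Its member (chr19:39406497-39407067) had a control peak of 358 bp beside knockout peaks of 528 bp (IGF2BP2) and 522 bp (IGF2BP3), and the nearest IGF2BP1 knockout peak was 3.44 kb away. H2AJ, a histone H2A variant, had a member (chr12:14774210-14774985) with peaks of 342, 371 and 776 bp. SPRED2, an inhibitor of Ras and ERK signalling, had members at both of its listed start sites. One (chr2:65432327-65433046) had peaks of 720, 702 and 556 bp, and the other (chr2:65366396-65367097) of 414, 702 and 497 bp. An IGF2BP1 knockout peak of 1128 bp lay 0.775 kb from the first, 1.05 kb from its start site and so just beyond the limit.

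IER2, an immediate early gene, and STX10, a syntaxin of the trans-Golgi network, shared a member (chr19:13149876-13150665) with peaks of 732, 540 and 573 bp. Their start sites were 1.01 and 1.05 kb from the nearest IGF2BP1 knockout peak, also just beyond the limit. DPM3, a subunit of dolichol-phosphate mannose synthase, had peaks of 641, 620 and 607 bp. At CSPG4, the NG2 proteoglycan, they were 641, 849 and 582 bp, and at LRAT, which esterifies retinol, 656, 588 and 589 bp. AIFM2, a suppressor of ferroptosis, had a wide control peak of 1132 bp and narrow ones of 465 and 445 bp in the IGF2BP2 and IGF2BP3 knockouts. The nearest IGF2BP1 knockout peaks were 3.42, 10.1, 28.2 and 12.1 kb from these 4 members.

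On chromosome 17 the members at start sites covered 9 of the 55 protein-coding genes. Beside PITPNM3, FGF11 and UBTF these were TEKT1, ZNF287, CNTNAP1, IFI35, ARMC7 and LGALS3BP. The member at TEKT1, a filament protein of cilia and flagella, had peaks of 860, 581 and 844 bp, and the nearest IGF2BP1 knockout peak was 81.5 kb away. ZNF287, a zinc finger protein, had peaks of 784, 647 and 754 bp, with 19.6 kb to the nearest. At CNTNAP1, an adhesion protein of myelinated axons, the peaks were 642, 556 and 630 bp. IFI35, an interferon-induced protein (chr17:43006569-43007168), had peaks of 465, 522 and 573 bp, and the nearest IGF2BP1 knockout peak, of 1227 bp, was 7.74 kb away. LGALS3BP, a secreted galectin-binding glycoprotein, had narrow peaks in the knockouts, 333 and 364 bp, and one of 635 bp in the control.

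Few members fell on the gene lists that were written for this work. The title of the series concerns innate immune signalling, and of 115 innate immune genes matched, 0 had a member at an end or start site, beside 95 regions in all 4 lists at those genes. The overall share of 3.15% covers regions at any position and is not a like comparison. Within 1 kb of an end of any gene there were 172 members beside 14345 regions in all 4 lists. With so few regions at the innate immune genes, the count of 0 and that proportion cannot be told apart. IFI35 was not on the innate immune list. The counts of members were likewise 0 beside 22 regions for the HOX genes, 0 beside 22 for insulin-like growth factor and oncofetal genes and 0 beside 19 for the m6A machinery. Among 63 kidney and neural transcription factor genes there were 2 members beside 52 regions, and among 42 chromatin regulators 1 beside 50. The marks of this line gave 1 beside 14, and the markers of other tissues 0 beside 6.

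The member at GATA3 (chr10:8049540-8051193), a zinc finger factor of kidney and lymphoid development that is on both the kidney list and the list of marks of this line, covered 1 of its 6 start sites. Its control peak measured 1358 bp, with 617 bp for the IGF2BP2 knockout and 1654 bp for the IGF2BP3 knockout, and an IGF2BP1 knockout peak of 663 bp lay 2.16 kb away. Other regions of the gene kept an IGF2BP1 knockout peak. At NEUROG2, a proneural factor, the member (chr4:112516499-112517003) was narrow, at 402, 286 and 505 bp, and flanked an IGF2BP1 knockout peak of 1867 bp at a distance of 0.367 kb. At SMARCA2, an ATPase of SWI/SNF remodelling complexes, the member (chr9:2015943-2017359) had peaks of 1417, 399 and 645 bp and lay 0.304 kb from an IGF2BP1 knockout peak of 1106 bp. These 3 genes therefore kept a peak at another position.

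In GC content, CpG ratio and the GGGCGG motif, promoters at members stood between those at regions in all 4 lists and promoters at large. The 66 windows overlapping a member, from 56 genes, had a median GC content of 62.2% and a median CpG ratio of 0.732. The 16368 windows at regions in all 4 lists had 66.3% and 0.843, and all 35116 windows had 58.7% and 0.579. GGGCGG was present in 34 of the 66 (51.5%), against 72.5% and 45.0%. The AP-1 motif TGANTCA was present in 9 of the 66 (13.6%), against 3.81% and 7.71%, and no interval was computed for so small a count. CCAAT was present in 34.8, 34.2 and 34.6%. CCGGAA was present in 21.2, 28.8 and 17.2%, the TATA box in 9.09, 4.80 and 11.5%, the E-box in 9.09, 9.68 and 7.26%, and AAGATGGC in 3.03, 4.81 and 2.89%. GCGCATGC was present in 3.03, 5.45 and 3.05%. TGACGTCA was in 0 of the 66, against 3.11 and 1.85%, and with 66 windows this count cannot be told apart from either share. Some windows overlap each other, and a match is a run of letters and not a bound site. One member (chr11:47399953-47401027) overlapped a microRNA hairpin, that of MIR4487, and there the IGF2BP2 knockout peak of 985 bp was the one that reached the hairpin, while those of 696 bp (control) and 689 bp (IGF2BP3 knockout) ended before it.

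Most members lay inside genes, but the share without an IGF2BP1 knockout peak was highest far from them. Of 953 members on chromosomes with gene positions, 589 (61.8%) overlapped a gene, against 78.0% of regions in all 4 lists. The share of regions that were members was 2.49% of 23623 overlapping a gene, 4.38% of 3400 within 10 kb, 5.22% of 3102 from 10 to 100 kb and 9.89% of 283 from 100 to 500 kb. Beyond 500 kb it was 25 of 75, or 33.3% (23.7 to 44.6). Among regions under 600 bp the same comparison gave 9.51% overlapping a gene (8.65 to 10.4) and 42.6% beyond 500 kb (30.3 to 55.8), so the difference was also present among narrow peaks. The IGF2BP2 knockout list lacked 1 of 51 regions beyond 500 kb (1.96%), the IGF2BP3 knockout list 13 of 63 (20.6%, 12.5 to 32.2) and the control list 7 of 57 (12.3%, 6.08 to 23.2). The intervals for the IGF2BP1 and IGF2BP3 knockouts overlap. A higher share far from genes was not particular to the IGF2BP1 knockout. The IGF2BP3 knockout list lacked 9.77% over genes, 14.2% within 10 kb, 16.3% from 10 to 100 kb and 19.8% from 100 to 500 kb, and the control list went from 11.4% over genes to 31.8% between 100 and 500 kb.

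**Figure D5:**
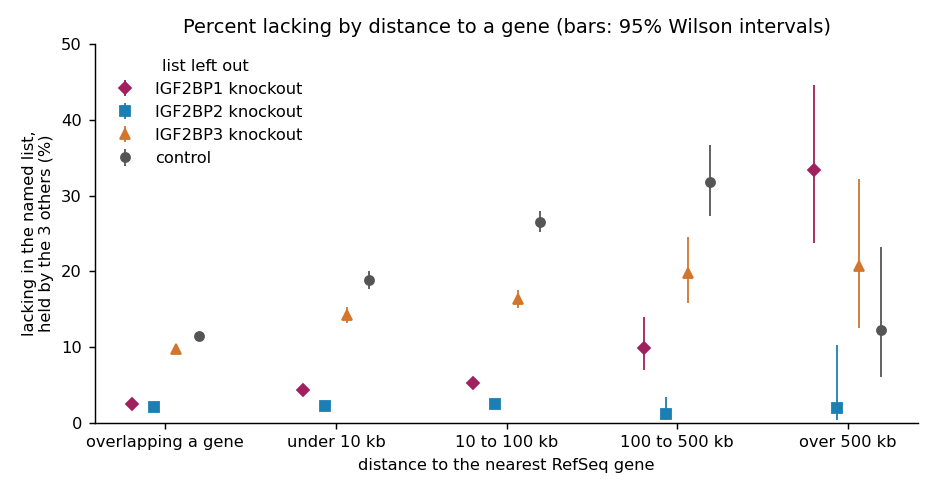
Percent of regions lacking in 1 list and held by the 3 others, by distance to the nearest RefSeq gene, for each list left out, with 95% Wilson intervals. For the IGF2BP1 knockout (diamonds) it goes from 2.49% over genes to 33.3% beyond 500 kb, and for the IGF2BP2 knockout (squares) it lies between 1.16 and 2.42%.

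Of the 25 members beyond 500 kb from a gene, 16 were on chromosome 1, 3 on chromosome 13, 2 on chromosome 17, and 1 each on chromosomes 4, 6, 16 and X. Without chromosome 1 the share was 9 of 30. As background, such stretches of the assembly are for the most part centromeric models and satellite arrays, where reads map to many copies. Among 528 windows of 5 Mb with at least 20 regions held by the 3 other lists, the share had a median of 2.5%, was above 10% in 14 and was 0 in 140. The highest was 20 to 25 Mb on chromosome 17 (10 of 40), followed by 120 to 125 Mb on chromosome 1 (16 of 71, 22.5%) and 90 to 95 Mb on chromosome 3 (4 of 21). Next came 110 to 115 Mb on X (5 of 32, 15.6%) and 30 to 35 Mb on chromosome 10 (5 of 33, 15.2%). The first 3 border or contain a centromere. On chromosome 3 the IGF2BP3 knockout and control lists each lacked 4 of 21 regions as well, and on X they lacked 5 of 32 and 7 of 34. In the window on chromosome 1 the IGF2BP3 knockout list lacked 14 of 69 regions (20.3%), the control list 8 of 63 (12.7%) and the IGF2BP2 knockout list 1 of 56 (1.79%). In the window on chromosome 17 they lacked 0 of 30, 1 of 31 and 0 of 30.

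Members rarely lay side by side. With gaps of up to 50 kb allowed, 884 stood alone, 32 pairs formed and 5 groups held 3 or more. The largest was on chromosome 1 from 122818887 to 122904551, with 6 members, 1247 kb from the nearest gene, where 3 of its 9 regions of any class had an IGF2BP1 knockout peak. Control peaks there were 273 to 407 bp wide, those of the IGF2BP2 knockout 315 to 759 bp and those of the IGF2BP3 knockout 259 to 581 bp. Another group of 4 was on the unlocalised sequence 14_GL000225v1_random, among 24 regions. Groups of 3 lay on chromosome 1 from 143219668 to 143252270, on chromosome 10 from 41879205 to 41905973 and on chromosome 19 from 50097886 to 50128948. The last spans a tandem array of SNAR-A genes, which encode small non-coding RNAs in near-identical copies. In all, 19 members were in these 5 groups. Reads in near-identical copies such as the SNAR-A genes cannot be placed with certainty. The sequence of the other groups was not read, and the part of read placement was not tested. On chromosome Y and the unplaced or unlocalised sequences together, 16 of 186 regions were members (8.60%, 5.36 to 13.5). The shares lacking there were 3.95% in the IGF2BP2 knockout, 5.03% in the IGF2BP3 knockout and 6.59% in the control. Regions placed on chromosome Y were not counted apart from the others. Whether these cells carry a chromosome Y was not tested, so these shares are not a measure of Y chromatin.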

How the data were processed

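ATAC-seq peak lists of 9 HEK293T libraries in 4 groups were analysed. Per the submitters' processing notes, the authors used fastp 0.24.1, BWA 0.7.17, MACS2 3.0.0 and bedtools with build GRCh38; parameters, the peak threshold, any shift for the transposase and how libraries became 1 list are not given in the sources used here. The deposited files hold the start and end of each peak in bp, and no other value. Depth per library is unknown. Peaks were merged with Python 3.11.15, and the merging gave the same regions as bedtools 2.31.1 and was tested on made-up peaks. Gene positions, start sites and promoter sequences came from RefSeq tables of GRCh38.p14. Start sites were listed for 15843 of 20056 protein-coding genes (79.0%) and for none on chromosome 8, whose members were counted but not named or tested for start sites. For that reason, 2 of the 10 members ranked first by their smallest width were left unnamed.

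Regions were named by fixed rules: the 10 members with the largest smallest width at least 1 kb from an IGF2BP1 knockout peak, the member nearest to each targeted gene, members at listed genes, the top 5 windows with at least 20 regions, groups of 3 or more within 50 kb, and 6 promoters wholly inside a member. Other genes with a start site at a member were named outside these rules, after their values were seen. Members, lists and rules were chosen with earlier results of these data known. Alternatives changed the joining gap (500 bp), the distance that counts as missing (1 kb), the length of the lists, the peak width (200 bp), the sequences used, and the overlap rule (50% of the shorter peak). No test was run over regions, since they are not replicates.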

Additional observations from a re-analysis of the deposited data

How the results depend on the processing

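Most alternatives left the values near those reported. The larger shifts came with the widest peaks of each list or with trimmed peaks. With the 39194 widest peaks of each list there were 1506 members, 5.90% of regions held by the 3 other lists. Of these, 8.90% lay on chromosome 17, and their median control width was 576.5 bp. Of the 967 members, 401 remained among these 1506. Members then made up 134 of 1287 regions on chromosome 17 (10.4%) and 15 of 30 beyond 500 kb from a gene, a use of this setting chosen after seeing the data, as was leaving out chromosome 1. The other lists then lacked 8.11% (IGF2BP2 knockout), 7.54% (IGF2BP3 knockout) and 8.72% (control), so the order of the 4 lists changed. Length and the widths kept change together in this setting, and it cannot separate them. With peaks trimmed to 200 bp there were 1486 members (5.17%), 30.9% of them at a gene end and 9.49% on chromosome 17; a median width cannot be given there. The cause of these shifts was not tested. Asking for no IGF2BP1 knockout peak within 1 kb gave 904 members. Their share of 2.955% was just under the lower limit of 2.965% for the reported share. For that share, 4 of 7 alternatives lay within its interval. For the number of members, 5 of 7 alternatives were within 1.5 times of 967. No paired analysis was possible because each group has 1 pooled list, and no library could be left out for the same reason. Unknown depth limits every absence described.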
